A study of Mus musculus with 6 samples.

Results

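The mitochondrially encoded genes were taken as the features whose gene name starts with mt-, which gave 37 of the 56362 features in the count tables. They comprise 13 protein-coding genes, 2 ribosomal RNA (rRNA) genes and 22 transfer RNA (tRNA) genes, which is the full gene set of the mouse mitochondrial genome. RNA came from the intestine of BALB/c mice, 3 of them wild type and 3 without FcεRIα, the IgE-binding subunit of the high-affinity IgE receptor, with 1 library per mouse according to the design text. All 6 sample titles contain DSS, an abbreviation left unexplained there, so the groups differ by genotype alone as far as the labels say. The labels give neither age nor sex, and the sources used here do not describe the knockout allele. The comparison is knockout against wild type gut.

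The mitochondrial genome is a small circle that is read from both strands into long transcripts, which are then cut at the tRNAs that lie between the other genes. Its protein-coding genes make core subunits of the respiratory chain: the mt-Nd genes of complex I (NADH dehydrogenase), mt-Cytb of complex III (cytochrome b), the mt-Co genes of complex IV (cytochrome c oxidase) and the mt-Atp genes of complex V (ATP synthase). mt-Rnr1 and mt-Rnr2 make the 12S and 16S rRNAs of the mitochondrial ribosome, which translates only these messenger RNAs (mRNAs). Gut epithelium draws on this chain for ion transport and renewal, and colon epithelium is known for oxidizing butyrate in its mitochondria.

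The libraries held 19031833 to 23092382 estimated counts. Fcer1a, the targeted gene, held 0, 10 and 18 counts in wild type libraries 1, 2 and 3 against 1, 0 and 0 in knockout libraries 1, 2 and 3, so wild type library 1 was at 0 as well. Wild type library 1 also stood apart in its cell type markers. The summed level of 15 epithelial markers was 30511 CPM there (counts scaled to a common library total by the trimmed mean of M-values, TMM), against 15604 and 14724 in the other wild type libraries and 22568 to 26777 in the knockout libraries. The sum of 10 goblet cell markers was 20532 CPM there, against 3806 and 6301 and, in knockout, 10517 to 14605. For 10 smooth muscle markers it was 427 CPM, against 2716 and 1807 and, in knockout, 1620 to 1672, and for 10 fibroblast markers 473 CPM, against 3110 and 4217 and, in knockout, 630 to 2647. No member of these lists was at 0 in all 6 libraries. Results on the mitochondrial genes are therefore given with and without that library. In bulk tissue, fewer cells of a type and less RNA per cell cannot be told apart.

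Part of the mitochondrial sequence also exists in the nuclear genome, and many counts were listed on those nuclear rows. A stretch of chromosome 1 (chr1:24611535-24616197, GRCm38, minus strand) holds 7 annotated copies of mitochondrial genes, 5 of which are identical to the mitochondrial gene over their whole length. The sequences shown were chosen because they span this range: mt-Co2 (subunit 2 of complex IV, chrM:7013-7696, plus strand) and its copy Gm28661 (chr1:24614885-24615565) cannot be told apart by sequence, mt-Nd3 and Gm28438 differ at 1 base, and mt-Co1 (chrM:5328-6872, plus strand) and Gm29216 (chr1:24615706-24616197) differ at 6. Each line gives 60 bases of the transcript strand, from GENCODE vM21 transcripts on GRCm38, with the bases that differ within a pair in capitals. The first 60 bases of mt-Co2 (chrM:7013-7072) and of its copy read as follows.
mt-Co2: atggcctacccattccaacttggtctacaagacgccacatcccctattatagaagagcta
Gm28661: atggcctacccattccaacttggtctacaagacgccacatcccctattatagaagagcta
The first 60 bases of mt-Nd3 (chrM:9459-9518) and of its copy hold the single difference, T3C, counted from the first base of mt-Nd3.
mt-Nd3: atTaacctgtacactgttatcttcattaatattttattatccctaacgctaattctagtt
Gm28438: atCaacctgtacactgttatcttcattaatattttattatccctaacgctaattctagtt
Bases 1054 to 1113 of mt-Co1 (chrM:6381-6440) and the first 60 bases of its copy hold all 6 differences: T1056A, C1057T, A1059G, A1060G, C1062A and A1066T.
mt-Co1: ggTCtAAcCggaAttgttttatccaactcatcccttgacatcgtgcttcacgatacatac
Gm29216: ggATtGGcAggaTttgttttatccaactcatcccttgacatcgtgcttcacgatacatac

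Most of the counts of such pairs were listed on chromosome 1. Of the counts of mt-Co2 and Gm28661 together, 95.0% to 98.7% were on the nuclear row over the 6 libraries, and of those of mt-Co3 (subunit 3 of complex IV) and Gm28437, 95.6% to 98.5%. For mt-Atp6 and Gm10925 the nuclear share was 93.1% to 96.3%, for mt-Nd4l and Gm10222 it was 83.0% to 91.7%, and for mt-Nd3 and Gm28438 it was 65.2% to 79.7%. The nuclear row for mt-Nd4, Gm28439, held 0 counts in all 6 libraries, although its sequence is identical to the first 876 bases of mt-Nd4. The groups overlapped in this division for all 7 pairs.

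The pair mt-Co1 and Gm29216 behaved differently in a single library. Gm29216, which matches the last 492 bases of mt-Co1 at 98.8% identity, took 0.00586% of the pair's counts in wild type library 1, which was 78 counts. In the other 5 libraries it took 3.34% to 6.38%, or 13327 to 27218 counts. A further copy of mt-Co1 on chromosome 2, Gm13340 (97.6% identity over 1545 bases), held 0.288%, 0.0663% and 0.0603% of all counts in wild type libraries against 0.0877%, 0.0737% and 0.0883% in knockout libraries. Of the 24 mitochondrial genes with any count, 7 had values that were not whole numbers (tolerance 0.001): mt-Co1, mt-Co2, mt-Co3, mt-Atp6, mt-Nd3, mt-Nd4l and mt-Ts1. The first 6 of these have a chromosome 1 copy, and mt-Ts1 overlaps mt-Co1 by 3 bases on the other strand. Neither trait marks such rows alone. mt-Nd4, which also has a copy, held whole numbers, as did mt-Atp8, mt-Nd5 and mt-Nd6, which overlap a neighboring gene by more bases. Values are therefore given on the mitochondrial rows as deposited and also with the 7 chromosome 1 rows added to the genes they match, a step chosen after the data were seen. Which copy the reads came from was not tested.

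**Figure D1:**
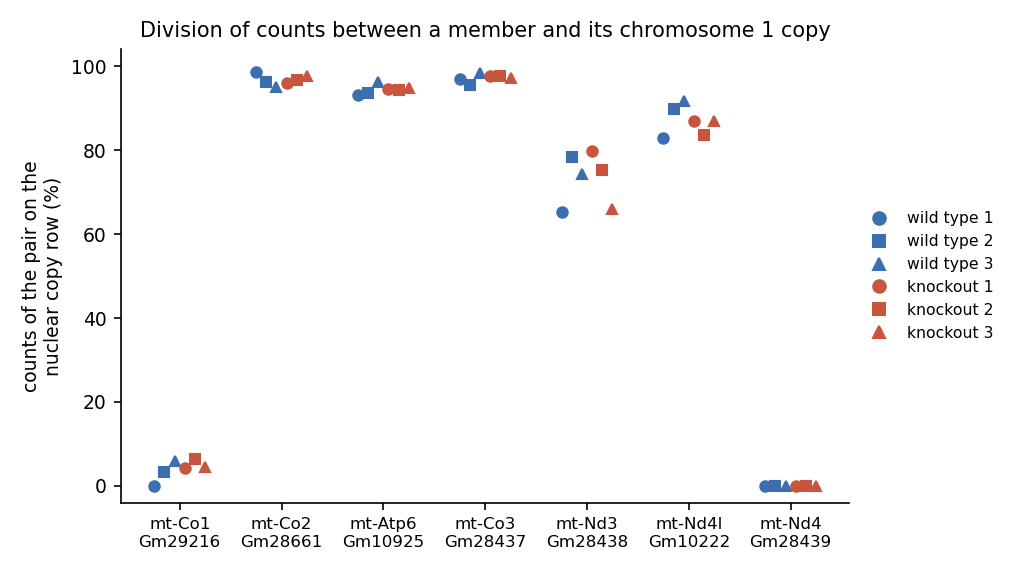
Percent of the counts of a pair (mitochondrial gene and chromosome 1 copy) that were listed on the copy, per library, with wild type in blue and knockout in red. The copies of mt-Co2, mt-Atp6 and mt-Co3 lie above 93% in all 6 libraries, and those of mt-Co1 and mt-Nd4 at 6.38% or less.

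The mitochondrial rows took 10.3%, 3.16% and 2.54% of all counts in wild type libraries 1, 2 and 3, against 3.64%, 2.82% and 3.49% in knockout libraries 1, 2 and 3. Wild type library 1 was far above the other 5, which overlapped. The group means were 5.33% ± 4.31 in wild type against 3.31% ± 0.436 in knockout (SD, n = 3 each), and the difference of -2.02 percentage points was smaller than the spread of the wild type libraries (two-sided exact permutation test, p = 0.90). Without wild type library 1 the wild type mean was 2.85%, which is below the knockout mean, so the direction of the difference rests on that library. Adding the chromosome 1 rows raised the share to 14.2%, 4.60% and 3.82% in wild type against 5.38%, 4.27% and 5.15% in knockout libraries, with the same p of 0.90 in the exact test. The epithelial and goblet marker sums given above were highest in the same library; their part in the mitochondrial share was not tested.

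**Figure D2:**
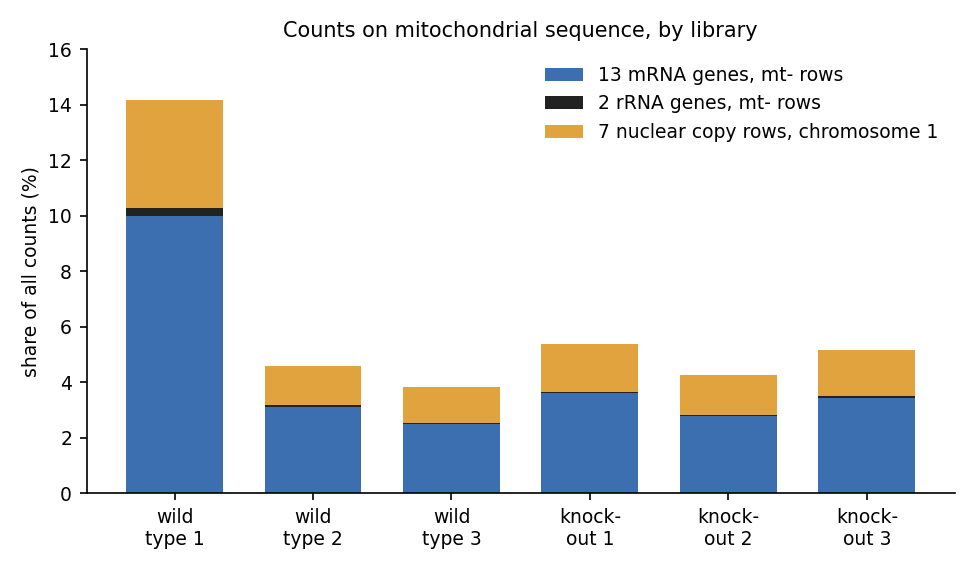
Percent of all counts, per library, on the 13 mitochondrial mRNA genes, the 2 rRNA genes and the 7 chromosome 1 copy rows, as stacked bars from 0. The bar of wild type library 1 reaches 14.2%, and the other 5 end between 3.82% and 5.38%.

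mt-Co1, the catalytic subunit 1 of complex IV, was the feature with the most counts in every library. Among the 13 mRNAs and 2 rRNAs, the order of levels per kilobase of gene length was alike in all 6 libraries once the chromosome 1 rows were added. mt-Co1, mt-Co2, mt-Co3, mt-Atp6, mt-Cytb and mt-Nd1 held places 1 to 6 in each library. mt-Atp8 and mt-Nd4 shared places 7 and 8, mt-Nd2, mt-Nd4l, mt-Nd3 and mt-Nd5 filled places 9 to 12 in varying order, and mt-Rnr1, mt-Nd6 and mt-Rnr2 were last. On the mitochondrial rows alone, mt-Co2 stood at places 8 to 15 and mt-Co3 at 9 to 14, so the copy rows changed the place of both genes.

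**Figure D3:**
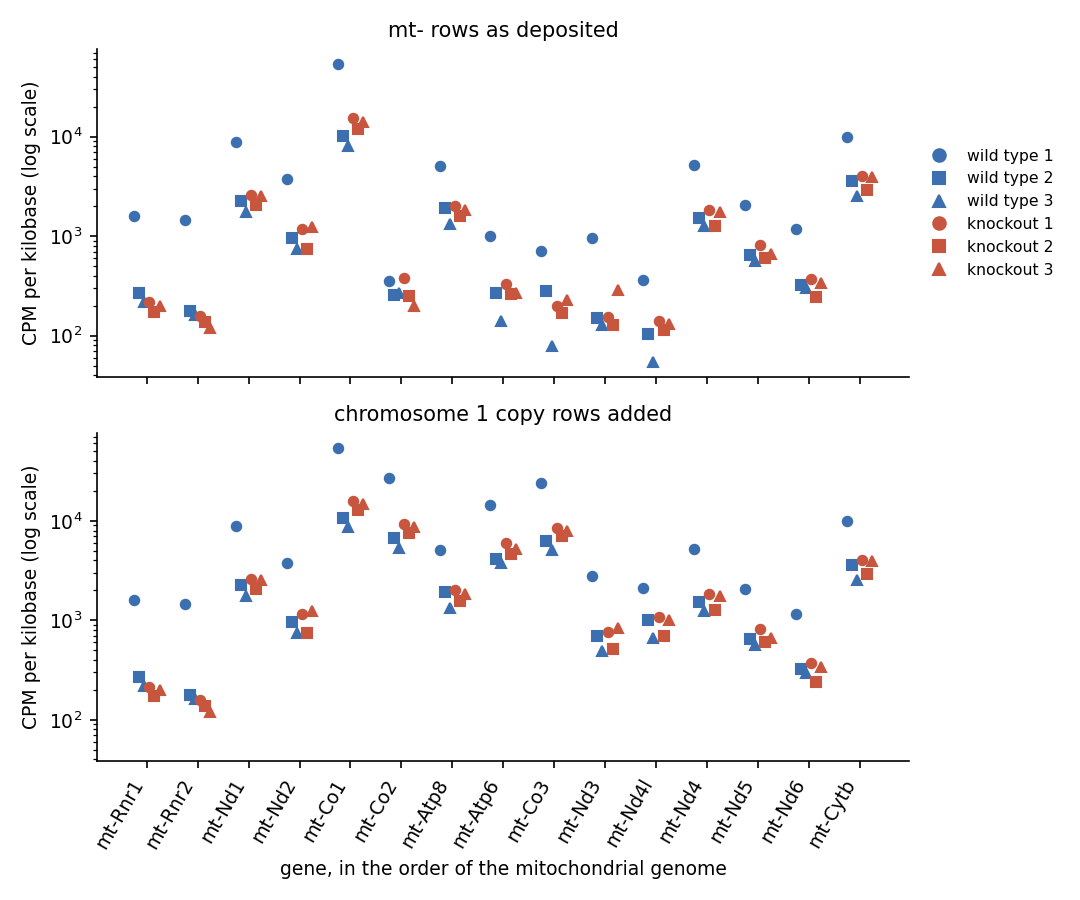
Level of each mitochondrial mRNA and rRNA gene in CPM per kilobase (TMM-scaled, log axis), per library, in genome order, on the mitochondrial rows (top) and with the chromosome 1 rows added (bottom). With the copies added, mt-Co1, mt-Co2 and mt-Co3 hold places 1, 2 and 3 in all 6 libraries, and wild type library 1 is the highest library for all 15 genes.

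The mRNAs that share a transcript show the effect of the copy rows on levels. mt-Atp8 and mt-Atp6 overlap by 43 bases and are kept on a single mRNA, as are mt-Nd4l and mt-Nd4, which overlap by 7 bases. The level of mt-Atp6 was 0.107 to 0.196 times that of mt-Atp8 per kilobase on the mitochondrial rows, and 2.15 to 2.97 times with the copy rows added. The level of mt-Nd4 was 11.0 to 23.0 times that of mt-Nd4l on the mitochondrial rows, and 1.52 to 2.42 times with the copy rows added.

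The 2 rRNA genes separated the groups under every scaling tried. mt-Rnr1 (ENSMUSG00000064337, chrM:70-1024, plus strand), the 12S rRNA of the small ribosomal subunit, stood at 1517, 255 and 208 CPM in wild type against 206, 167 and 189 CPM in knockout libraries. mt-Rnr2 (ENSMUSG00000064339, chrM:1094-2675, plus strand), the 16S rRNA of the large subunit, stood at 2290, 279 and 257 CPM in wild type against 248, 217 and 190 CPM in knockout libraries. Every knockout library lay below every wild type library for both genes, although the gap was narrow: wild type library 3 and knockout library 1 differed by less than 1% for mt-Rnr1. This separation held under all 5 ways of scaling the libraries, and 4.24% of the 16732 genes tested showed the same ordering. Among the cell type markers, all 8 tested neutrophil genes had a lower fitted level in knockout (median log2 fold change -1.34). So did all tested endothelial (10, median -0.90), enteric neuron and glia (9, -1.02), fibroblast (10, -0.55) and B and plasma cell genes (10, -0.55). Fitted levels were mostly lower for T and NK cell (9 of 10, median -0.52), mast cell (8 of 9, -0.64) and smooth muscle genes (7 of 10, -0.08). Over all genes tested, 55.8% had a log2 fold change under 0. Fitted levels were mostly higher for epithelial (14 of 15), macrophage (8 of 10), colonocyte (7 of 10) and goblet genes (6 of 9). Of the neutrophil genes, 2 had the ordering of the rRNAs. S100a8 stood at 61.5, 22.2 and 15.8 against 9.92, 9.14 and 13.6 CPM, and S100a9 at 28.4, 40.6 and 28.6 against 6.42, 9.46 and 9.80 CPM. The sum of the neutrophil markers overlapped between groups, at 1297, 941 and 491 against 691, 682 and 613 CPM. Their part in the rRNA levels was not tested.

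By edgeR's quasi-likelihood test, neither rRNA gene passed the threshold. The log2 fold change, knockout against wild type, was -1.82 (SE 0.77) for mt-Rnr1, with an edgeR p of 0.0529 and a Benjamini-Hochberg adjusted p of 0.727. It was -2.11 (SE 0.88) for mt-Rnr2, with an edgeR p of 0.0497 and an adjusted p of 0.727. Without wild type library 1 the log2 fold changes were -0.34 (SE 0.16) and -0.33 (SE 0.16), with adjusted p of 0.242 and 0.260 in edgeR, so the direction stayed while most of the size came from that library. Wild type library 1 held 6.55 times the mean of the other wild type libraries for mt-Rnr1 and 8.55 times for mt-Rnr2.

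The share of rRNA within the mitochondrial counts does not depend on how libraries are scaled against each other. It was 3.05%, 1.90% and 2.12% in wild type against 1.20%, 1.33% and 1.08% in knockout libraries, and the groups did not overlap. The means were 2.35% ± 0.609 and 1.20% ± 0.123 (SD, n = 3 each), a difference of -1.15 percentage points with an exact permutation p of 0.10, the smallest that 3 against 3 libraries allow. Counting error was far smaller than this difference, since no 95% exact binomial interval was wider than 0.0407 points to either side; these intervals cover counting error only. Without wild type library 1 the wild type mean was 2.01%. With the chromosome 1 rows added, the share was 2.22%, 1.30% and 1.41% in wild type against 0.812%, 0.874% and 0.732% in knockout libraries, again with no overlap. As a share of all counts in the library, the 2 rRNAs made up 0.314%, 0.0599% and 0.0540% in wild type against 0.0437%, 0.0374% and 0.0377% in knockout libraries.

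RNAs without a long poly(A) tail were looked at after the data were seen, and their orderings differed. 7SL RNA (Rn7s1 and Rn7s2), the RNA of the signal recognition particle, which had the ordering of the rRNAs, summed to 116, 93 and 94 counts in wild type against 81, 63 and 66 in knockout libraries, or 7.23, 3.85 and 4.28 against 3.83, 2.94 and 2.88 CPM. Its 2 rows held equal values in every library. The gap was narrow, at 3.85 CPM in wild type library 2 against 3.83 CPM in knockout library 1, and 4.24% of all genes had this ordering. The sum of Rpph1, Rmrp and Terc overlapped between groups, at 0.872, 0.536 and 0.452 against 0.567, 0.280 and 0.871 CPM. The histone genes were taken by the start of the symbol, all linker histones included, so some of their mRNAs may carry a poly(A) tail. The sum over all 70 histone genes, tested or not, also overlapped, at 903, 440 and 479 against 535, 530 and 560 CPM. Of the 30 histone genes tested, 27 had a lower fitted level in knockout, 7 had every knockout library below every wild type library (4.24% of all genes did), 4 were lower at an unadjusted edgeR p under 0.05 (2.3% of all genes were), and none passed the threshold. The part of RNA selection or RNA quality in the rRNA result was not tested.

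**Figure D4:**
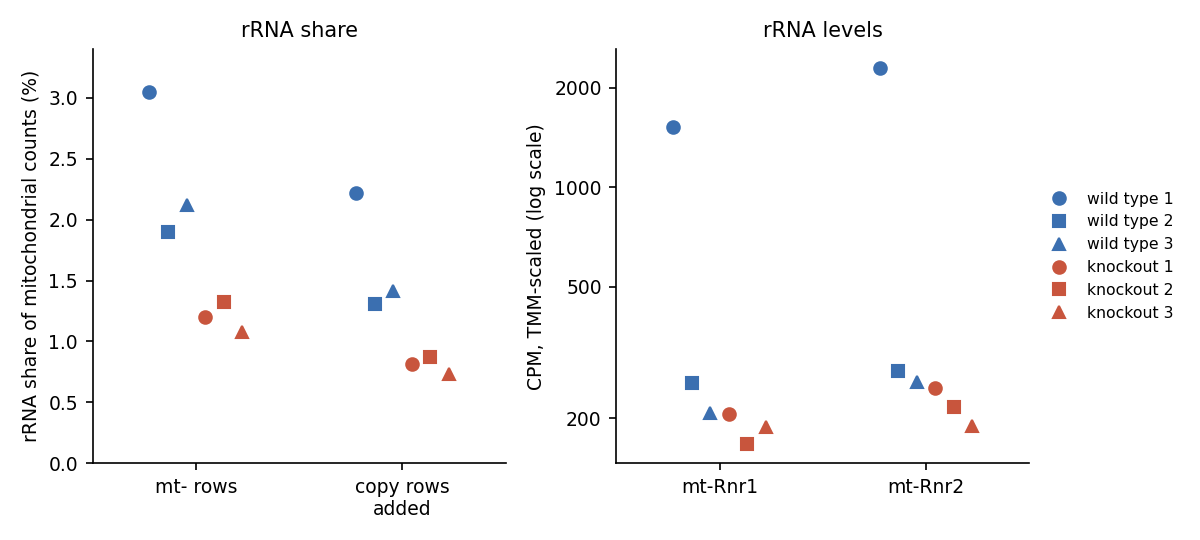
Left, percent of mitochondrial counts on mt-Rnr1 and mt-Rnr2 per library, on the mitochondrial rows and with the chromosome 1 rows added; right, TMM-scaled CPM of both genes on a log axis. All 3 knockout libraries lie below all 3 wild type libraries in each panel, at 1.08% to 1.33% against 1.90% to 3.05% on the mitochondrial rows.

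None of the 16 mitochondrial genes that entered the fit passed an adjusted p of 0.05 in edgeR's quasi-likelihood test, and of all 16732 genes tested 0% did. At an unadjusted p under 0.05, mt-Rnr2 was the only member. It was lower in knockout, as were 2.3% of all genes, while 4.54% were higher and 6.84% passed in either direction. DESeq2 called 0 members, with 0.296% of the 28424 genes it fitted called. It gave no p-value for mt-Rnr2 (log2 fold change -2.13) and no adjusted p for any tRNA gene, so it left these undecided. With limma-voom 0 members were called, and 0.012% of all genes were. For the 13 mRNAs the groups overlapped in every case, and the log2 fold changes ran from -1.12 to -0.08 with a median of -0.71, beside a median of -0.05 over all genes tested. Without wild type library 1 they ran from -0.004 to 0.69 with a median of 0.22, so that the sign of 12 of the 13 turned. With the chromosome 1 rows added, the range was -0.91 to -0.44 with all libraries and -0.0035 to 0.56 without wild type library 1, again with no gene called (smallest edgeR adjusted p 0.238).

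Complex I has 7 mitochondrial subunits. The level of mt-Nd1, which helps form the ubiquinone-binding site, was 8478, 2157 and 1663 CPM in wild type against 2473, 1967 and 2438 CPM in knockout libraries. For mt-Nd2 it was 3884, 1005 and 773 CPM against 1214, 774 and 1285 CPM. mt-Nd4 stood at 7112, 2091 and 1725 CPM against 2535, 1745 and 2441 CPM, and its fitted log2 fold change of -0.70 (SE 0.59) was 0.20 (SE 0.23) without wild type library 1. These 3 genes followed a common pattern, with wild type library 1 above the rest and the other 5 libraries mixed. mt-Nd5 stood at 3751, 1185 and 1028 CPM in wild type against 1483, 1101 and 1212 CPM in knockout libraries. With the copy rows added, the small subunit mt-Nd3 stood at 965, 242 and 173 CPM against 267, 179 and 293 CPM. mt-Nd4l, also with its copy, stood at 632, 297 and 196 CPM against 320, 208 and 298 CPM. For mt-Nd4l the row used mattered: without wild type library 1 its log2 fold change was 0.69 (SE 0.28; edgeR p 0.0488, adjusted p 0.196, where 25.1% of all genes had p under 0.05) on the mitochondrial row, and 0.13 (SE 0.26) with Gm10222 added.

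mt-Nd6 is the only protein-coding gene on the light-strand transcript, and its level reads that strand only if the counting used strand. It stood at 607, 168 and 155 CPM in wild type against 195, 126 and 174 CPM in knockout libraries, with a log2 fold change of -0.91 (SE 0.56; edgeR adjusted p 0.790) that was -0.004 (SE 0.21) without wild type library 1. Its share of the mitochondrial mRNA counts was 0.501%, 0.610% and 0.722% in wild type against 0.522%, 0.441% and 0.503% in knockout libraries, which overlapped (exact permutation p = 0.30). With the copy rows in the denominator the shares were 0.361%, 0.417% and 0.478% against 0.352%, 0.289% and 0.339%, which did not overlap (exact p = 0.10, the smallest possible). mt-Nd6 overlaps mt-Nd5 by 14 bases on the opposite strand, and no source used here states whether the counting used strand. If it did not, reads from either strand could be counted on mt-Nd6 along its whole length. Neither the reads of that overlap nor the strand behind the mt-Nd6 level can therefore be assigned.

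mt-Cytb, the only mitochondrial gene of complex III, stood at 11404, 4076 and 2932 CPM in wild type against 4604, 3355 and 4531 CPM in knockout libraries. Its log2 fold change was -0.56 (SE 0.56) with all libraries and 0.22 (SE 0.25) without wild type library 1, and it was not called in edgeR (adjusted p 0.853 with all libraries). Its share of mitochondrial mRNA counts was 12.6% ± 2.83 in wild type against 12.4% ± 0.664 in knockout libraries (SD, n = 3; exact permutation p = 0.90).

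Complex IV took most of the mitochondrial mRNA counts. mt-Co1 stood at 82942, 15895 and 12473 CPM in wild type against 23644, 18625 and 21588 CPM in knockout libraries, and all 3 knockout libraries lay between wild type library 1 and the other wild type libraries. Its log2 fold change was -0.80 (SE 0.85), and 0.55 (SE 0.26; edgeR adjusted p 0.256) without wild type library 1. mt-Co2, which carries the copper center that accepts electrons from cytochrome c, stood at 243, 174 and 182 against 261, 170 and 137 CPM on its own row, and at 18360, 4579 and 3623 against 6413, 5137 and 5964 CPM with Gm28661. Its log2 fold change accordingly moved from -0.08 (SE 0.28) to -0.60 (SE 0.67). mt-Co3 with Gm28437 stood at 18914, 4961 and 4012 CPM in wild type against 6659, 5555 and 6260 CPM in knockout libraries. All 3 genes with their copies thus had the knockout libraries between wild type library 1 and the other wild type libraries.

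Complex V has mt-Atp6, part of the proton channel, and mt-Atp8, a small accessory subunit. mt-Atp6 with Gm10925 stood at 9907, 2804 and 2572 CPM in wild type against 4106, 3201 and 3540 CPM in knockout libraries, with a log2 fold change of -0.49 (SE 0.58). mt-Atp8, which has no copy row on chromosome 1, stood at 1041, 390 and 270 CPM against 414, 323 and 376 CPM, with a log2 fold change of -0.61 (SE 0.49; edgeR adjusted p 0.830).

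**Figure D5:**
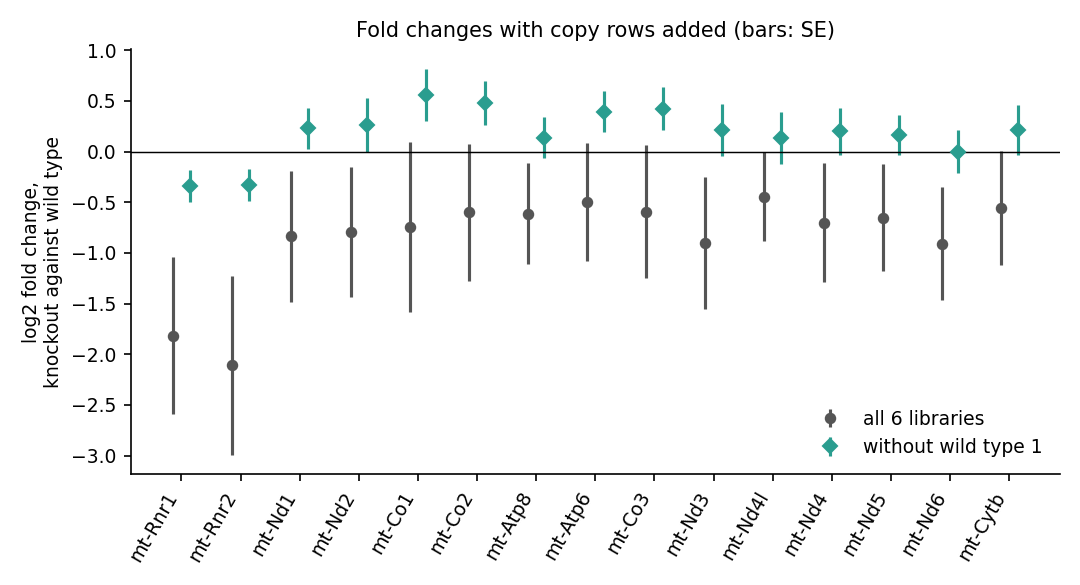
log2 fold change, knockout against wild type, with its SE for the 15 mRNA and rRNA genes with the chromosome 1 rows added, from edgeR fits with all 6 libraries (grey) and without wild type library 1 (green). The 13 mRNAs lie at -0.91 to -0.44 with all libraries and at -0.0035 to 0.56 without that library, while mt-Rnr1 and mt-Rnr2 are negative in both fits.

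With all libraries, the groups overlapped in the makeup of the mRNA pool by complex. Complex I genes took 23.2% ± 2.75 of mitochondrial mRNA counts in wild type against 21.3% ± 0.960 in knockout libraries (SD, n = 3; exact permutation p = 0.40). Complex IV genes took 62.5% ± 5.76 and 64.6% ± 1.54 (n = 3; exact p = 0.60), and complex V genes 1.73% ± 0.324 and 1.69% ± 0.0762 (n = 3; exact p = 0.80). Wild type library 1 also differed from the other wild type libraries in this makeup: mt-Co1 took 68.5% of its mRNA counts, against 57.5% and 58.2%, and mt-Cytb 9.41%, against 14.8% and 13.7%. The knockout libraries lay between them, at 62.2% to 65.2% for mt-Co1 and 11.7% to 13.1% for mt-Cytb. Without wild type library 1 the groups did not overlap for complexes I, III and IV. The differences, knockout minus wild type, were then -3.43, -1.84 and 5.47 percentage points, each with an exact permutation p of 0.20, the smallest that 2 against 3 libraries allow. With the copy rows added, complex IV made up 66.8% and 68.7% and complex V 7.73% and 7.96% of the mRNA counts in wild type and knockout. Among the shares of single mRNAs on that basis, mt-Nd1 had 5.05%, 5.34% and 5.14% in wild type against 4.47%, 4.52% and 4.74% in knockout libraries, and mt-Co2 had 10.9%, 11.3% and 11.2% against 11.6%, 11.8% and 11.6%. Both separated the groups on that basis, as did mt-Nd6, with an exact permutation p of 0.10 each, the smallest possible, among 13 shares compared. On the mitochondrial rows all 3 overlapped (exact permutation p of 0.20 for mt-Nd1, 1 for mt-Co2 and 0.30 for mt-Nd6). There the share of mt-Nd4l separated the groups, at 0.0889%, 0.111% and 0.0754% against 0.113%, 0.120% and 0.112% (exact p = 0.10), and it overlapped with the copy rows added.

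The tRNA genes were hardly read. Of the 22, 13 were at 0 counts in all 6 libraries, and a count of 0 allows up to 3 counts in a library, or 0.130 to 0.158 CPM of its total. All 22 together summed to 9.48, 8.6 and 14.42 counts in wild type against 19.4, 15.3 and 40.39 in knockout libraries, which is 0.000473% to 0.00502% of the mitochondrial counts in a library. mt-Ts1, a serine tRNA, supplied most of these, with 8.48, 6.60 and 12.42 against 13.40, 12.30 and 25.39 counts, and was the only tRNA to enter the fit. Its log2 fold change was 0.77 (SE 0.50; edgeR adjusted p 0.799), and every knockout library was above every wild type library on the TMM scale, as for 8.72% of all genes, but the groups overlapped under the other 4 scalings. The others with counts were mt-Te, mt-Tp, mt-Tn, mt-Tq, mt-Tc, mt-Th, mt-Tm and mt-Tg, none above 5 counts in any library. mt-Te (glutamic acid) had 1, 0 and 1 counts in wild type against 3, 0 and 5 in knockout libraries, and mt-Tp (proline) 0, 2 and 0 against 2, 2 and 1. mt-Tq (glutamine) had 3 counts in knockout library 3 and none elsewhere, and mt-Tn (asparagine) had 1 count in the wild type library and 2 in the knockout library of number 3.

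Nuclear genes that read, process and translate the mitochondrial genome showed no called change in edgeR's quasi-likelihood test in any list, and 0% of all genes were called. Of 27 genes of mitochondrial DNA transcription and replication, 23 had a lower fitted level in knockout, with a median log2 fold change of -0.18 beside -0.05 over all genes, where 55.8% of genes were below 0. The gene of smallest p among them was Mterf4, a factor of mitochondrial ribosome assembly, at 20.2, 17.1 and 14.4 CPM in wild type against 10.2, 8.65 and 9.12 CPM in knockout libraries. Its log2 fold change was -0.89 (SE 0.22, edgeR p 0.00536, adjusted p 0.684), and the groups did not overlap. In this list, 1 of 27 genes had every knockout library below every wild type library, as did 4.24% of all genes. Mterf1a, a transcription terminator that binds downstream of the rRNA genes, came next with -0.61 (SE 0.36) and overlapping groups.

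Of 45 genes of mitochondrial RNA processing and decay, 29 had a lower fitted level, with a median of -0.07. Tfb1m, the methyltransferase that modifies the 12S rRNA, stood at 8.10, 7.18 and 5.84 CPM in wild type against 5.34, 3.87 and 4.72 CPM in knockout libraries, and Ptcd2 at 50.1, 35.8 and 40.6 against 51.6, 56.8 and 52.8 CPM. Neither was called (edgeR adjusted p 0.744 for each). Among 78 mitochondrial ribosomal protein genes, the protein partners of both rRNAs, 57 had a lower fitted level, with a median of -0.08. Of 78 tested nuclear subunits of complexes I, III, IV and V, 60 had a higher fitted level in knockout, with a median of 0.15. Summed over all 87 rows of this list, tested or not, the level was 21445, 9942 and 11053 CPM in wild type against 17853, 16494 and 16272 CPM in knockout libraries. That sum has the shape seen for mt-Co1, with wild type library 1 highest and the knockout libraries between it and the other wild type libraries.

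In the remaining lists, 19 of 36 genes of mitochondrial translation had a higher fitted level, with a median of 0.01. Kars, the lysyl-tRNA synthetase that serves both cytosol and mitochondria, stood at 126, 137 and 125 CPM in wild type against 208, 214 and 183 CPM in knockout libraries (log2 fold change 0.64, SE 0.14; edgeR adjusted p 0.684). Fars2, the mitochondrial phenylalanyl-tRNA synthetase, had a log2 fold change of 0.48 (SE 0.16). Of 25 regulators of mitochondrial biogenesis, 14 had a higher fitted level, with a median of 0.06. Ppargc1a, the coactivator that drives biogenesis programs, stood at 16.9, 2.85 and 7.60 CPM in wild type against 27.5, 44.1 and 20.6 CPM in knockout libraries (log2 fold change 1.76, SE 0.64; edgeR adjusted p 0.709). Prkaa2, a catalytic subunit of the energy sensor AMPK, had 0.77 (SE 0.23; adjusted p 0.684). The median was -0.15 over 23 genes of the mitochondrial stress response, of which Eif2ak1 (log2 fold change 0.36) and Oma1 (0.34) had the smallest p. It was 0.12 over 20 mitophagy genes, of which Mul1 (0.47) and Pink1 (0.38) had the smallest p.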

How the data were processed

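Titles gave each library its group and number. TRIzol extraction, a DNase I step and the Illumina TruSeq RNA kit are stated per the labels' protocols. The submitters' processing notes name TopHat2 2.0.0 and mm10. No source used here names the counter, the annotation or the strand setting. The deposited tables hold estimated counts per gene and a gene length, and 12.4% to 14.8% of features had fractional values. Where a read fits more than 1 place, the authors' counting decides its row, which affects the copied genes.

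Counts were rounded and fitted with edgeR 4.0.16 (R 4.3.3; quasi-likelihood F test, TMM, filterByExpr with minimum count 10, 16732 genes, threshold adjusted p 0.05). DESeq2 1.42.0, limma-voom (limma 3.58.1), other scalings and filters, omission of each library and a replicate block were alternatives. CPM values used TMM-scaled totals, and shares used unrounded counts. Exact permutation tests used SciPy 1.17.1. Nuclear copies were found with BLAST 2.17.0 among GENCODE vM21 transcripts (at least 85% identity over 100 bases, same strand), which gave 21, of which 9 had counts. Steps were tested on simulated data. The libraries of a group were not copies of each other. P-values measure the spread between these mice. The members, the lists and the rule for named genes (every rRNA and mRNA, the tRNAs of highest count, the 2 genes of smallest p in the gene expression, biogenesis, stress and mitophagy lists) were chosen with earlier results of these data known. The RNAs chosen for lacking a poly(A) tail (7SL RNA, histones, Rpph1, Rmrp and Terc) were looked at after the data were seen. So were the neutrophil markers named, the marker lists set beside them and the sum of the nuclear respiratory subunits.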

Additional observations from a re-analysis of the deposited data

How the results depend on the processing

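No member was called in any edgeR, DESeq2 or limma-voom setting, but DESeq2 gave no verdict on mt-Rnr2 or the tRNA genes. Over all genes, DESeq2 called 84, limma-voom 2, edgeR without a filter on low counts 3 of 28424, and every other edgeR setting 0. Of 159 fold changes under alternatives other than leaving out a library, 157 kept their direction; mt-Nd4l turned to 0.10 in limma-voom and 0.028 with a replicate block. Scaling moved the median log2 fold change of all genes from -0.05 (TMM) to -0.13 (library totals), with the members' signs kept. Correlations of same-numbered deviations from the group means were 0.42, -0.13 and 0.0055. With so few libraries per group, these can neither show nor exclude a pairing of mice by replicate number. With the replicate block, the smallest adjusted p of a member was 0.880 in edgeR. For the shares a block cannot move the difference (-2.02 and -1.15 points), since the mean of same-numbered differences equals that of the group means. With group medians the mitochondrial share difference turned its sign, from -2.02 to 0.324 points. With copy rows added, the complex V share difference turned from -0.0432 to 0.223 points (0.218 with all copies found). That of mt-Co3 turned from -0.0493 to 0.342 points, and that of mt-Nd4l from 0.0232 to -0.0266.

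Leaving out each library in turn gave log2 fold changes of -1.21 to 0.23 for mt-Nd1, -1.16 to 0.26 for mt-Nd2, -1.21 to 0.55 for mt-Co1, -0.44 to 0.11 for mt-Co2, -0.94 to 0.14 for mt-Atp8, -1.14 to 0.46 for mt-Atp6, -1.32 to 0.13 for mt-Co3, -1.55 to 0.41 for mt-Nd3, -1.03 to 0.20 for mt-Nd4, -0.84 to 0.69 for mt-Nd4l, -0.96 to 0.16 for mt-Nd5, -0.89 to 0.22 for mt-Cytb, and -1.23 to -0.004 for mt-Nd6, which kept its sign. For mt-Rnr1 and mt-Rnr2 they were -2.24 to -0.34 and -2.55 to -0.33. Share differences ran from -3.42 to 0.461 points for all mitochondrial rows, -1.38 to -0.806 for rRNA, -3.43 to -0.834 for complex I, 0.388 to 5.47 for complex IV, -1.84 to 0.831 for complex III (mt-Cytb), -0.199 to 0.124 for complex V, -0.177 to 0.148 for mt-Co2, -0.229 to 0.0471 for mt-Atp8, -0.0264 to 0.0772 for mt-Atp6, -0.163 to 0.0909 for mt-Co3 and -0.769 to 0.0828 for mt-Nd5. Beyond what is given above, the cause of a turned sign was not tested. With 3 mice per group, no exact test could pass 0.05. The tRNA counts were too few for a test of all but mt-Ts1.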
